A study of Macaca fascicularis with 4 samples.

Results

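Solute carriers are the membrane transporters that move nutrients, ions, metals, vitamins and drugs into and out of cells and organelles. The members described here were all genes named in the usual form for a solute carrier (SLC, a family number, the letter A and a member number) that had 20 or more counts summed over the 4 libraries of the series. The members were thus chosen by their summed counts, a sum that 1 library alone can reach. For 12 members all counts lay in 1 library. A set of 8 named genes of the same form was left out: SLC25A13, SLC25A15, SLC27A5, SLC10A1, SLC7A10, SLC2A2, SLC2A4 and SLC40A1. This left 151 of the 13982 genes in the files, from 38 families; another 96 genes of that form had fewer than 20 counts. Just inside the threshold lay SLC25A29 and SLC38A6 with 21 counts each, and just outside it SLC27A4 with 19. The median member had 71 counts over the 4 libraries and the highest, SLC38A4, had 917.

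The libraries were made from liver, muscle, oWAT and sWAT of the cynomolgus monkey (Macaca fascicularis). WAT commonly stands for white adipose tissue; the labels leave the first letter unexplained. Each library held RNA of 5 monkeys, pooled by tissue, and was sequenced in full length on a PacBio instrument. A count is taken here as 1 long read assigned to a gene, though the counting method is not stated, and the intervals rest on this. The labels give no age, sex, diet or treatment. With 1 pooled library per tissue there are no replicates: each interval below covers counting error only, and no p-value is given.

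Most solute carriers act by alternating access, exposing a binding site first on one face of the membrane and then on the other. Some run downhill as uniporters, while others couple their cargo to sodium, protons or a counter-moving solute. The liver is known for taking up amino acids, bile acids, drugs and metals from portal blood, muscle for importing glucose and exporting lactate, and fat for taking up fatty acids and glucose for storage. The mitochondrial carrier family, SLC25, connects the matrix of the mitochondrion with the cytosol in every one of these tissues.

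Counts assigned to genes totalled between 383896 and 439872 per library. The defining markers matched the labelled tissues: all 8 hepatocyte markers had counts in liver (71484 together) against 1 to 3 summed counts elsewhere, all 8 myofibre markers had counts in muscle (46755 together) against 33 to 58, and adipocyte markers summed to 15751 CPM (counts per 1000000 counts of the library) in oWAT and 18648 in sWAT. Muscle carried adipocyte markers too, at 1269 CPM. Fibroblast markers summed to 349.6 CPM in liver, against 17791 to 65648 CPM in the other 3 libraries, and mesothelial markers to 1604 counts in oWAT against 0 to 10 counts elsewhere. In bulk tissue such as this, fewer cells of a type and less RNA per cell cannot be told apart.

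The liver library held the most solute carrier transcripts. The 151 members took 1.52% of liver counts (exact 95% binomial interval 1.49 to 1.56), 0.875% in muscle (0.848 to 0.903), 0.994% in oWAT (0.963 to 1.03) and 0.892% in sWAT (0.862 to 0.922). Of the members, 117 had counts in all 4 libraries, 10 in liver alone, 1 in muscle alone, 1 in oWAT alone and 0 in sWAT alone. A gene at 0 counts can lie at up to 3 counts by chance, which is 6.86 CPM for the liver library, 6.82 CPM for muscle, 7.56 CPM for oWAT and 7.81 CPM for sWAT.

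A member was called higher in a library where it had at least 10 counts there and the exact 95% interval of the fold, from the ratio of counts scaled to library totals, lay wholly above 2 in every pairing. It was called lower where the comparison libraries had at least 10 counts each and the interval lay wholly below 1/2. Folds are given for the pairing whose bound lay nearest 1. Where the lower library had 0 counts, the fold is against the floor of 3 counts and is given as "at least". Such a fold takes the higher count as free of error and is not a confidence bound. The exact 95% lower bound was smaller in each case, as 51.6 beside 64.0 for SLC22A7 and 2.86 beside 4.18 for SLC2A5 in liver.

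By this rule, liver exceeded each other library for 27 of the 90 members that reached 10 counts in it, or 30.0%. Among all genes with 20 or more counts that met the same minimum, 10.2% were called. The members lower in liver numbered 12 of 66 (18.2%), against 11.8% of all genes. Muscle had 9 of 88 higher (10.2%, against 6.28% of all genes) and 2 of 53 lower (3.77%, against 2.2%). Both WAT libraries had 3 of 90 higher than liver and muscle (3.33%, against 4.22%) and 2 of 54 lower (3.70%, against 0.612%). Between the fat libraries, 2 of 104 were higher in oWAT (1.92%, against 1.29%) and 0 of 99 in sWAT, against 0.704% of all genes. In all, 54 members had at least 1 call, 3 of them in more than 1 comparison, and 97 had none. The rule left out 8 genes of this form, of which SLC27A5, SLC10A1, SLC2A2, SLC25A13 and SLC25A15 had most of their counts in liver, SLC2A4 had 317 counts in muscle against 1, 45 and 43 in liver, oWAT and sWAT, and SLC7A10 had 28 in each fat library against 0 in liver and 4 in muscle. Without the counts of the library or libraries they were called for, 20 of the 27 members higher in liver, 5 of the 9 in muscle, 2 of the 3 in both WAT libraries and 1 of the 2 in oWAT would have fallen below 20 counts, so the minimum sum selected them through the tissue in which they were then called. The genes behind the percentages for all genes met the same minimum sum.

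Scaling changed the split of liver calls. With edgeR's trimmed mean of M-values (TMM), 35 of 90 members were higher and 3 of 66 lower in liver. With DESeq2's size factors these were 34 and 4. Among all genes, 14.6% were higher and 6.11% lower with TMM, and 14.3% and 6.22% with DESeq2. The share of members lower in liver was thus no longer above that of all genes. Muscle changed from 9 higher and 2 lower to 9 and 0 with both. Over all genes, muscle had 7.19% higher and 1.31% lower with TMM, and 7.03% and 1.39% with DESeq2. The WAT split of 3 higher and 2 lower became 1 and 4 with both, and 2 and 3 with totals that left out the 10 most abundant genes of each library. The WAT shares of all genes were 1.23% higher and 1.41% lower with TMM and 1.29% and 1.38% with DESeq2. They were 3.06% and 0.719% with those totals. Between the fat libraries the split of 2 in oWAT and 0 in sWAT became 1 and 0 with TMM and 1 and 1 with DESeq2. For all genes the split was 1.11% and 1.09% with TMM, and 1.02% and 1.29% with DESeq2. TMM raised every liver value by 0.58 on the log2 scale and every muscle value by 0.13, and lowered oWAT values by 0.43 and sWAT values by 0.28. All 27 members higher in liver and all 9 higher in muscle kept their calls under these 3 scalings. For liver this was bound to happen, as each of the 3 raised liver values against every other library and could only add calls. Marker levels moved with the members lower in liver: beside the fibroblast markers, endothelial markers summed to 302 CPM in liver against 1103 to 3970 CPM in the other libraries, and the part of these cells in those members' values was not tested.

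**Figure D1:**
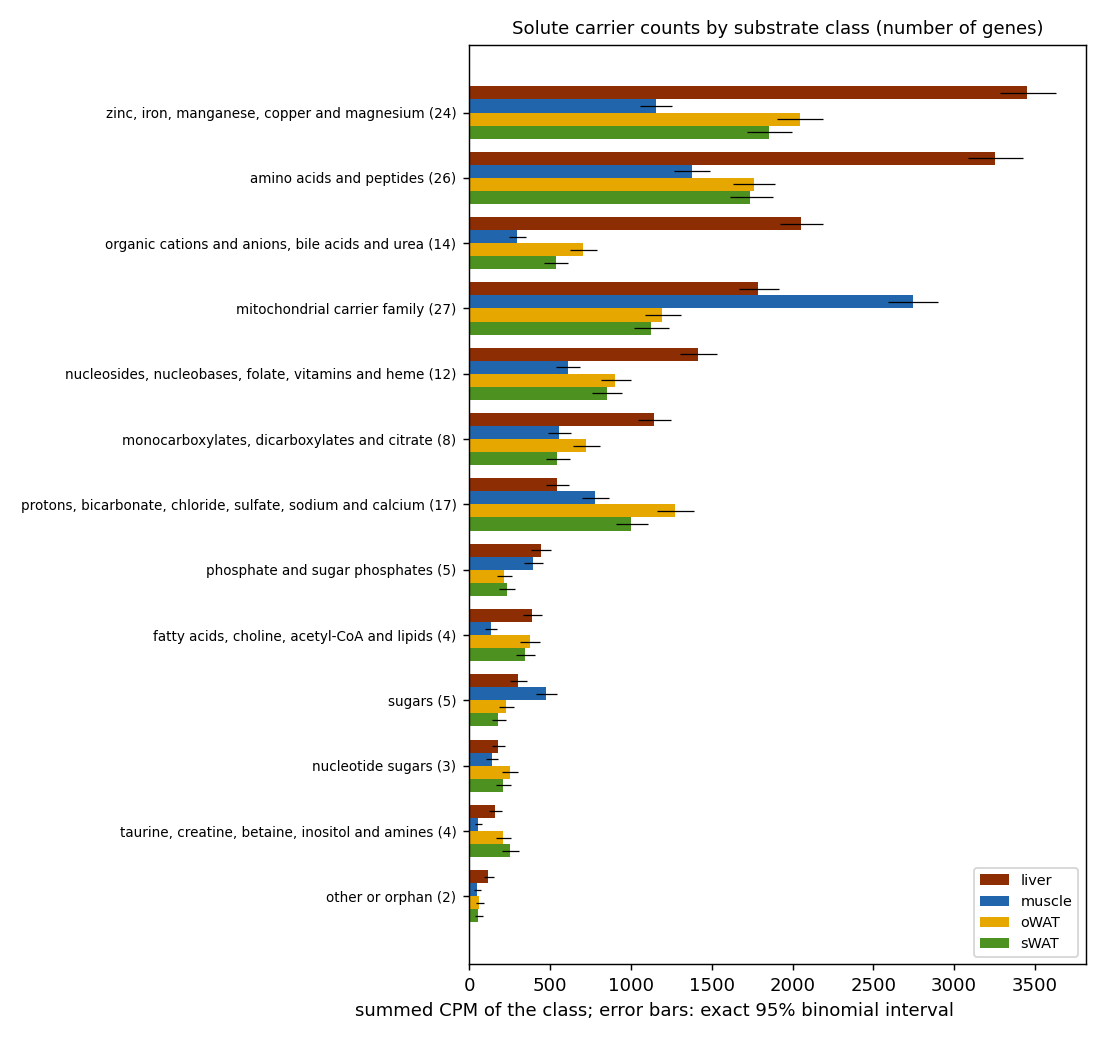
Summed CPM (x axis) of the members of each of 13 substrate classes (y axis, number of genes in brackets) in liver, muscle, oWAT and sWAT; error bars are exact 95% binomial intervals of the summed count. Metal carriers reach 3453 CPM in liver against 1153 in muscle, while the mitochondrial carriers are highest in muscle, at 2744 CPM. In liver, SLC39A14 gives 44.2% of the metal carrier counts.

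The 13 substrate classes differed in where their counts lay, as the plot of class sums shows. Metal carriers (24 members) summed to 3453 CPM in liver against 1153 for muscle, 2044 for oWAT and 1855 for sWAT. Of the 24, 7 were highest in liver, against 55 of all 151 members, and SLC39A14 supplied 44.2% of the class counts there. Carriers of organic ions (14 members) summed to 2052 CPM in liver against 296 for muscle, 706 for oWAT and 534 for sWAT. Mitochondrial carriers (27 members) had their highest sum in muscle, where they gave 31.4% of all member counts against 11.7% in liver, 12.02% in oWAT and 12.6% in sWAT. Singly, 5 of the 27 were highest in muscle and 14 in liver. Their sums in muscle and liver were 2744 and 1789 CPM, and 3010 and 2667 with TMM. The rule had left SLC25A13 and SLC25A15, with most of their counts in liver, out of this family. Carriers of protons, bicarbonate, chloride and related ions (17 members) were lowest in liver at 542 CPM and highest in oWAT at 1273, a ratio of 2.35 that fell to 1.17 with TMM and 1.18 with DESeq2 scaling. A class sum can rest on 1 gene: SLC38A4 supplied 61.6% of the amino acid counts in liver and SLC25A4 40.1% of the mitochondrial counts in muscle. The 27 members called higher in liver supplied 58.7% of the member counts there, and the 9 called higher in muscle 28.1% of those in muscle.

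**Figure D2:**
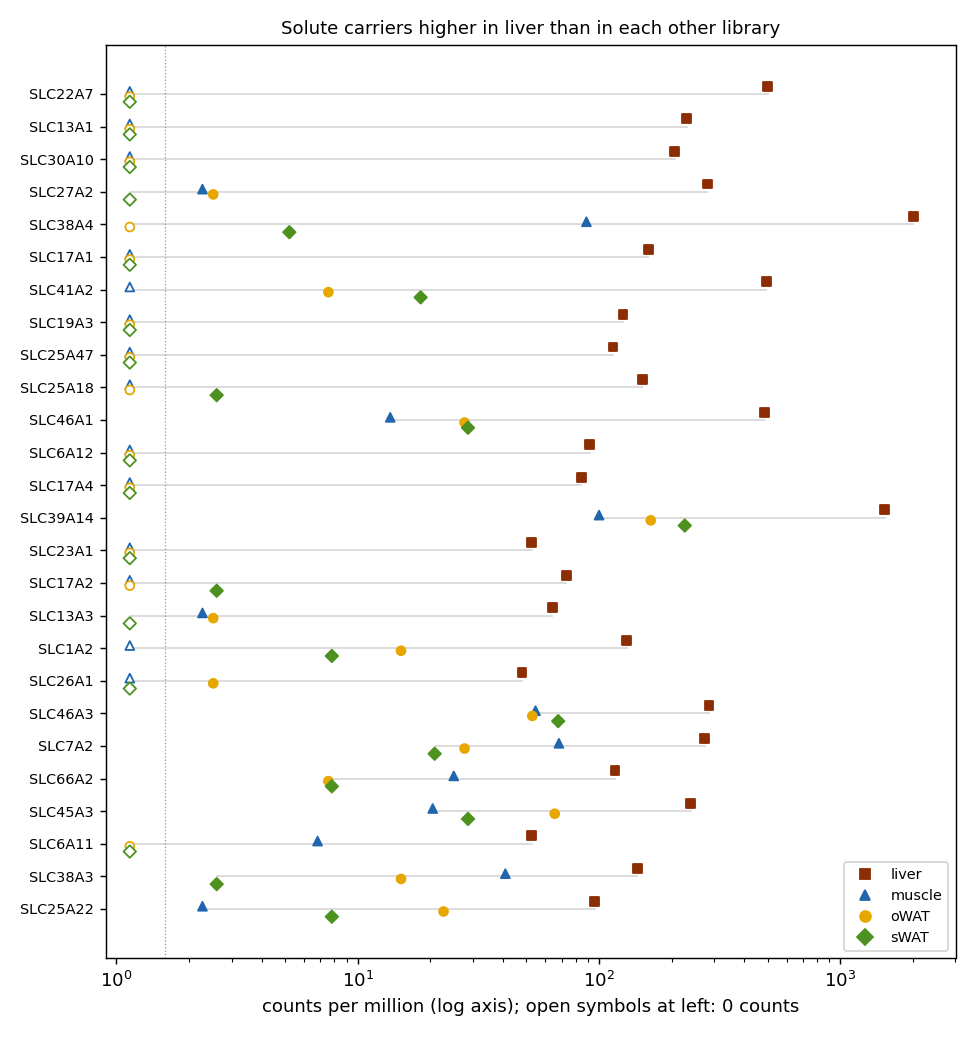
CPM (x axis, log scale) of 26 of the 27 members higher in liver than in each other library, 1 row per gene and 1 symbol per library, ordered by the bound nearest 1; open symbols left of the dotted line are 0 counts. Liver is the rightmost symbol in every row, from 48.0 CPM for SLC26A1 to 2002 CPM for SLC38A4.

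Amino acid and peptide carriers had 26 members. Of those that reached the minimum counts, 4 of 10 were higher and 2 of 9 lower in liver (all genes 10.2% and 11.8%). Higher in muscle were 2 of 18 (6.28%). Both WAT libraries had 1 of 14 higher (4.22%) and 1 of 9 lower (0.612%). SLC38A4, a sodium-coupled carrier of neutral amino acids, had 876 liver counts, 39 muscle counts, 0 in oWAT and 2 in sWAT. It was 22.6-fold higher in liver than in muscle (16.4 to 32.0), and muscle in turn exceeded sWAT 17.0-fold (4.41 to 145), so that it was also called lower in fat. The liver, muscle and fat values of this gene thus formed 3 separate levels.

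SLC7A2, a carrier of arginine and other cationic amino acids, had 120, 30, 11 and 8 counts in liver, muscle, oWAT and sWAT, and was 4.02-fold higher in liver than in muscle (2.68 to 6.22). SLC38A3, which moves glutamine, had 63, 18, 6 and 1 counts in the same order (3.52-fold over muscle, 2.06 to 6.31). Both genes had their counts in the order liver, muscle, fat, as SLC38A4 did. Where 4 counts are given for a gene without naming libraries, their order is liver, muscle, oWAT and sWAT, and 3 counts set against 1 library follow the same order without it.

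The glutamate transporters were split between tissues. SLC1A2 had 57 counts in liver against 0, 6 and 3 in muscle, oWAT and sWAT and was 8.61-fold higher in liver than in oWAT (3.72 to 24.5). SLC1A3 had 0 counts in liver against 38, 37 and 39 in muscle, oWAT and sWAT, at least 12.6-fold lower in liver than in muscle. These close relatives, known best from glial cells, had opposite liver calls. SLC1A5, of the same family but a carrier of glutamine and other neutral amino acids, had 2, 9, 82 and 76 counts. It was 9.68-fold higher in sWAT than in muscle (4.84 to 21.97), the only amino acid carrier among the members called higher in both fat libraries. SLC7A10, left out by the rule, had 0, 4, 28 and 28 counts and is not part of that ranking.

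In muscle, SLC36A2, a proton-coupled carrier of small amino acids, had 40 counts against 0 in liver and oWAT and 1 in sWAT, a ratio of 34.9 over sWAT (5.92 to 1413). SLC7A5, which exchanges large neutral amino acids, had 24 counts in muscle and 2, 1 and 0 in liver, oWAT and sWAT (11.9-fold over liver, 2.96 to 104). SLC7A6 had 3 counts in liver against 27, 35 and 19 in the others, 7.22-fold lower than in sWAT (2.13 to 38.1), and each of the 3 other scalings ended that call. SLC7A5, SLC7A6 and SLC7A8 work as light chains that need the heavy chain SLC3A2 at the cell surface. SLC3A2 itself had 3 counts in oWAT and 0 in the other 3 libraries, below the threshold for members. The annotation and counting method behind these values are not stated, so the 0s of SLC3A2 say only that no read was assigned to it.

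The other 17 amino acid carriers had no call. SLC38A10 was among the most even members, with 164, 127, 208 and 210 counts, and its highest value was 1.89 times its lowest (1.51 to 2.38). For each ratio of highest to lowest value, the libraries were picked by their values, and the interval leaves that choice out. SLC38A2, a carrier induced by amino acid shortage, had 37, 70, 38 and 60 counts (1.88 times, 1.25 to 2.88), while its relative SLC38A1 had 4, 20, 45 and 46. Of the 17, 0 had their highest value in liver and 11 their lowest, against 26 and 49 of all 97 members with no call. With TMM the 17 gave 2 and 5, and the 97 gave 38 and 25. Over all 26 carriers the median log2 ratio of liver to the highest other library was -1.79, against -1.32 over 8479 genes with 20 or more counts. With TMM these medians were -1.07 and -0.56.

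Sugar carriers had 5 members. SLC2A5, the fructose transporter GLUT5, had 166 counts in muscle against 0, 22 and 11 in liver, oWAT and sWAT. It was 6.81-fold higher in muscle than in oWAT (4.35 to 11.2) and was also called lower in liver, at least 4.18-fold below sWAT, the latter lost with TMM and DESeq2 scaling. SLC45A3 had 105 counts in liver against 9, 26 and 11, 3.66-fold over oWAT (2.37 to 5.86). SLC2A1, the widely expressed glucose transporter GLUT1, had 4, 8, 7 and 8 counts, and SLC2A8 had 9, 6, 7 and 4, too few to tell the libraries apart. SLC2A10 had 15, 20, 28 and 35 counts and no call.

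Mitochondrial carriers had 27 members. Of those that reached the minimum counts, 3 of 21 were higher and 2 of 12 lower in liver (all genes 10.2% and 11.8%). Higher in muscle were 3 of 18 (6.28%). SLC25A4, the form of the ADP/ATP exchanger typical of heart and muscle, had 484 counts in muscle, 28 in liver, 35 in oWAT and 22 in sWAT, 12.5-fold over oWAT (8.85 to 18.1). SLC25A5, another form of the same exchanger, had 6 counts in muscle against 33, 16 and 14 in liver, oWAT and sWAT, and its liver value was 5.53 times that of muscle (2.29 to 16.1), without a call. The order of muscle and liver was thus opposite for these forms. They are close copies, and how reads shared between copies were counted is not stated.

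SLC25A12, which exchanges aspartate for glutamate in the malate-aspartate shuttle, had 171 counts in muscle, 1 in liver, 17 in oWAT and 10 in sWAT, 9.07-fold over oWAT (5.50 to 15.9). Its partner isoform SLC25A13, one of the genes left out by the rule, had 138 counts in liver and 5, 16 and 11 in muscle, oWAT and sWAT. SLC25A34 had 55 counts in muscle against 10, 2 and 4 (5.47-fold over liver, 2.76 to 12.04).

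Liver had its own mitochondrial carriers. SLC25A47 had 50 counts in liver and 0 in each other library, at least 14.6-fold higher. The glutamate carriers SLC25A18 and SLC25A22 were both higher in liver. SLC25A18 had 66 counts against 0, 0 and 1 in muscle, oWAT and sWAT, a ratio of 57.9 over sWAT (10.04 to 2321), and SLC25A22 had 42 against 1, 9 and 3 (4.23-fold over oWAT, 2.03 to 9.89).

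Lower in liver were SLC25A24, which exchanges ATP-magnesium for phosphate (0, 16, 23 and 29 counts, at least 5.31-fold below muscle), and SLC25A36, a carrier of pyrimidine nucleotides. SLC25A36 had 6, 55, 46 and 59 counts and was 8.45-fold below oWAT (3.60 to 24.2), a call that TMM and DESeq2 scaling ended. SLC25A25, of the same ATP-magnesium group as SLC25A24, had the opposite order, with 152, 90, 28 and 20 counts. Its liver value was 6.67 times that of sWAT (4.17 to 11.2); it was not called, as the interval of liver over muscle reached below 2, but both fat libraries were called lower with TMM, DESeq2 and trimmed totals.

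Among the other mitochondrial carriers, SLC25A3, which brings in phosphate for ATP synthesis, had 24, 92, 46 and 37 counts, and SLC25A1, which exports citrate for fat synthesis, had 102, 11, 34 and 35. SLC25A1 was called higher in liver with TMM and DESeq2 scaling, but not with library totals or trimmed totals. With library totals SLC25A44 was the most even of the members with 100 or more counts, at 44, 30, 30 and 36 (1.47 times between highest and lowest, 0.906 to 2.43), but its ratio was 2.67 with TMM, where SLC29A1 at 1.22 and SLC39A7 at 1.25 were lowest. SLC25A46 had 24, 41, 41 and 38. Of the 19 carriers with no call, 11 had their highest value in liver. Over all 27 the median log2 ratio of liver to the highest other library was 0.10, and 0.89 with TMM, against the -1.32 and -0.56 given above for genes with 20 or more counts.

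**Figure D3:**
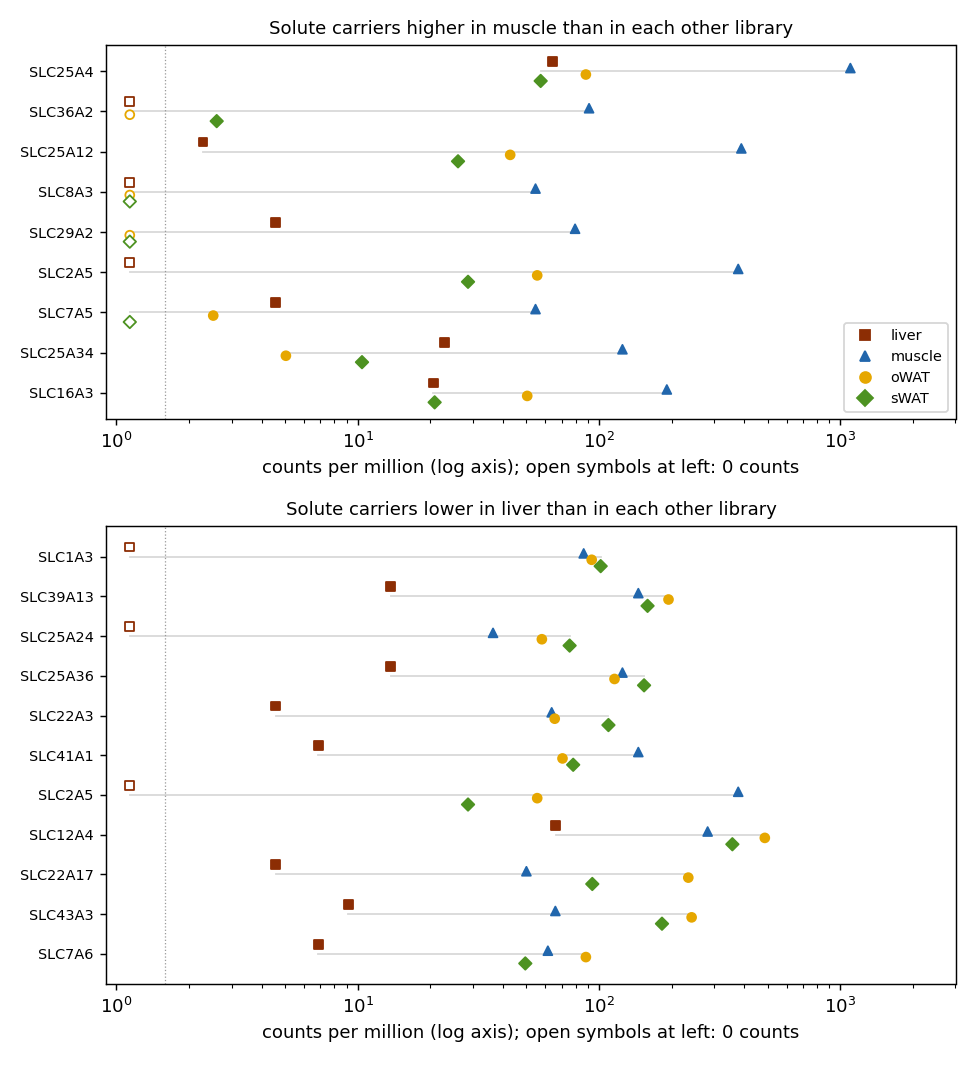
CPM (x axis, log scale) of the 9 members higher in muscle (upper panel) and 11 of the 12 lower in liver (lower panel), 1 row per gene and 1 symbol per library; open symbols left of the dotted line are 0 counts. Muscle is rightmost in every row of the upper panel, up to 1100.3 CPM for SLC25A4, and liver is leftmost in every row of the lower panel, where 3 of the 11 have 0 liver counts.

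Carriers of monocarboxylates, dicarboxylates and citrate had 8 members. SLC16A3, the exporter of lactate in glycolytic cells, had 84 counts in muscle against 9, 20 and 8 in liver, oWAT and sWAT, 3.79-fold over oWAT (2.31 to 6.52). SLC16A1, which carries lactate, pyruvate and ketone bodies in most tissues, had 112, 78, 119 and 50 counts and no call, and its oWAT value was 2.30 times that of sWAT (1.64 to 3.27).

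Both SLC13 members of this class were higher in liver. SLC13A1, which carries sulfate and not a carboxylate, had 101 counts in liver and 0 in the other libraries, at least 29.5-fold higher. SLC13A3, a carrier of succinate and other dicarboxylates, had 28 counts against 1, 1 and 0 (25.4 times oWAT, 4.20 to 1038). SLC16A5, with 2, 35, 11 and 11 counts, SLC16A7, with 4, 8, 22 and 22, and SLC16A14, with 2, 12, 13 and 22, were all lowest in liver but not called.

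Carriers of organic cations and anions had 14 members. Of those that reached the minimum counts, 5 of 9 were higher and 2 of 3 lower in liver (all genes 10.2% and 11.8%). SLC22A7, an organic anion transporter, had 219 counts in liver and 0 in muscle, oWAT and sWAT, at least 64.0-fold higher. Of the 5 SLC17 members, 3 were higher in liver. SLC17A1 had 70 counts and SLC17A4 had 37, each against 0 elsewhere, and SLC17A2 had 32 against a single count in sWAT. Their folds were at least 20.5, at least 10.8 and 28.1 (4.69 to 1143) over sWAT.

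Within SLC22 the tissue order reversed for other members. SLC22A3, an organic cation transporter, had 2 counts in liver and 28, 26 and 42 in muscle, oWAT and sWAT, 13.9-fold below muscle (3.51 to 121). SLC22A17, a receptor for the iron-binding protein lipocalin-2, had 2, 22, 93 and 36 counts, 10.9-fold below muscle (2.69 to 96.0). Both calls were lost with TMM and DESeq2 scaling. The carnitine carrier SLC22A5 had 37, 7, 16 and 15 counts and was called higher in liver with those 2 scalings but not with library totals. SLC17A5, which exports sialic acid from lysosomes, had 57, 35, 93 and 54 counts, SLC47A1 7, 17, 8 and 14, and SLC10A3 0, 9, 17 and 14, with no call.

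Carriers of fatty acids and choline had 4 members. SLC27A2, which both takes up fatty acids and activates very long ones, had 123 counts in liver against 1, 1 and 0 in muscle, oWAT and sWAT, a ratio of 112 over oWAT (19.6 to 4441). SLC27A1, a fatty acid transport protein of muscle and fat, had 20, 29, 63 and 35 counts, and the choline carrier SLC44A1 had 26, 17, 72 and 84, highest in fat but not called. SLC27A3 had 1, 11, 12 and 13 counts.

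The class of taurine, betaine and amine carriers held 4 SLC6 members, each of them called, against 54 of all 151 members. SLC6A12, which carries betaine and GABA, had 40 counts in liver and 0 elsewhere, at least 11.7-fold higher. SLC6A11, a GABA transporter, had 23 counts in liver against 3 in muscle and 0 in both fat libraries (7.71-fold over muscle, 2.33 to 40.1). SLC6A6, the taurine transporter, had 7, 20, 61 and 96 counts and was higher in both fat libraries, 3.38-fold in oWAT over muscle (2.01 to 5.92), a call lost with TMM, DESeq2 and trimmed totals. SLC6A3, the dopamine transporter, is described with the fat libraries below.

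Carriers of protons, bicarbonate, chloride, sulfate, sodium and calcium had 17 members and 5 calls. Of those that reached the minimum counts, 1 of 8 was higher and 2 of 8 lower in liver (all genes 10.2% and 11.8%). Higher in muscle was 1 of 10 (6.28%), and in both WAT libraries 1 of 12 (4.22%). SLC8A3, a sodium-calcium exchanger, had 24 counts in muscle and 0 in the other 3 libraries, at least 6.98-fold higher. SLC12A4, a potassium-chloride cotransporter, had 29, 124, 193 and 137 counts and was 4.25-fold lower in liver than in muscle (2.82 to 6.61), a call lost with TMM. SLC12A7, a relative of SLC12A4, had 47, 6, 14 and 19 counts and was called higher in liver with TMM and DESeq2 scaling but not with library totals.

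The anion exchangers of family SLC26 were split as well. SLC26A1, a sulfate and oxalate carrier, had 21 counts in liver against 0, 1 and 0 in muscle, oWAT and sWAT (19.04 times oWAT, 3.06 to 787.5). SLC26A7 had 0, 2, 24 and 16 counts and was higher in both fat libraries, 9.17-fold in sWAT over muscle (2.16 to 82.2), lost with TMM and DESeq2. Among the members rich in counts, the endosomal exchanger SLC9A9 (16, 15, 55 and 44) and the chloride-bicarbonate exchanger SLC4A2 (13, 25, 38 and 15) had no call.

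Metal carriers had 24 members. Of those that reached the minimum counts, 3 of 17 were higher and 2 of 15 lower in liver (all genes 10.2% and 11.8%). Lower in muscle was 1 of 14 (2.2%), and higher in oWAT than in sWAT 1 of 20 (1.29%). SLC39A14, which takes up zinc, manganese and iron, had 668 counts in liver against 44, 65 and 87 in muscle, oWAT and sWAT, 6.74-fold over sWAT (5.38 to 8.52). It was present in all 4 libraries, unlike SLC30A10, which exports manganese and had 90 counts in liver and 0 elsewhere (at least 26.3-fold). The manganese importer and the manganese exporter were thus both called for liver, one as a gene with counts everywhere and the other as a gene with counts in liver alone.

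Magnesium carriers of family SLC41 had opposite orders. SLC41A2 had 216 counts in liver against 0, 3 and 7 in muscle, oWAT and sWAT (27.1-fold over sWAT, 12.9 to 68.1), whereas SLC41A1 had 3, 64, 28 and 30 and was 10.3-fold lower in liver than in oWAT (3.18 to 52.9), though not with TMM or DESeq2 scaling. SLC39A13, a zinc transporter of the secretory pathway, had 6, 64, 77 and 61 counts and was 10.6-fold lower in liver than in muscle (4.62 to 30.0). That call held under all 3 other scalings.

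Of the 24 metal carriers, 18 had no call, as had 97 of all 151 members. All 18 had counts in every library, as had 92 of the 97. Highest values of the 18 were 1.32 to 7.98 times their lowest. SLC39A9 had 128, 33, 55 and 82 counts, SLC30A9 33, 65, 76 and 42, SLC30A5 34, 38, 68 and 51, SLC39A1 31, 32, 53 and 37, and SLC39A7, a zinc transporter of the endoplasmic reticulum, 22, 24, 34 and 29. The last 3 were among the 10 most even members. The median ratio of highest to lowest value over the 18 was 3.12. It was 3.70 over the 92 members with no call that had counts in all 4 libraries. The copper importer SLC31A1, with 74, 19, 23 and 21 counts, was not called, but was called higher in liver with each of the 3 other scalings.

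Carriers of nucleosides, nucleobases, vitamins and heme had 12 members. Of those that reached the minimum counts, 4 of 7 were higher and 1 of 4 lower in liver (all genes 10.2% and 11.8%). Higher in muscle was 1 of 5 (6.28%). SLC46A1, the proton-coupled folate carrier, had 213 counts in liver against 6, 11 and 11 (17.0-fold over sWAT, 9.30 to 34.5). SLC46A3, a lysosomal relative, had 125 against 24, 21 and 26 (4.22-fold over sWAT, 2.75 to 6.71). SLC19A3, a thiamine transporter, had 55 against 0 elsewhere (at least 16.1-fold), and SLC23A1, which carries vitamin C with sodium, 23 against 0 (at least 6.73-fold). Its relative SLC23A2 had 79, 5, 18 and 23 counts and was not called, but was called for liver with each of the 3 other scalings.

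Nucleoside carriers did not share that order. SLC29A2 had 35 counts in muscle, 2 in liver and 0 in both fat libraries, 17.4-fold over liver (4.47 to 149). SLC29A1, a widely expressed equilibrative nucleoside transporter, had 82, 126, 140 and 149 counts and no call (2.07 times between highest and lowest, 1.57 to 2.75). The nucleobase carrier SLC43A3 had 4, 29, 96 and 70 counts and was 7.21-fold lower in liver than in muscle (2.53 to 28.2), lost with TMM and DESeq2. SLC48A1, which moves heme out of lysosomes, had 3, 31, 18 and 23 counts and no call.

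Phosphate and sugar phosphate carriers had 5 members. SLC37A4, which brings glucose-6-phosphate into the endoplasmic reticulum for release as glucose, had 117 counts in liver, 71 in muscle and 10 in each fat library. It was lower in fat, 6.20-fold below muscle in sWAT (3.18 to 13.5), and liver was not called against muscle. SLC20A2, a sodium-phosphate cotransporter, had 29, 72, 20 and 22 counts. SLC37A2 (8, 5, 27 and 32) and SLC37A1 (25, 9, 5 and 2) had opposite orders without a call, and SLC37A3 had 14, 17, 23 and 23.

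The nucleotide sugar class, SLC35A5 (47, 44, 74 and 55), SLC35A2 (23, 10, 16 and 12) and SLC35A1 (7, 7, 9 and 13), had no call, and their highest values were 1.86 to 2.31 times their lowest. Of the remaining pair, SLC66A2 had 51, 11, 3 and 3 counts and was 4.66-fold higher in liver than in muscle (2.40 to 9.92), while SLC66A3 had 1, 9, 22 and 18 and no call.

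The fat libraries differed little from each other in solute carriers. Across the 151 members the Spearman correlation of CPM between oWAT and sWAT was 0.89, against 0.88 over 8479 genes with 20 or more counts. It was 0.57 for muscle with either fat library. For liver it was -0.019 with muscle, -0.015 with oWAT and -0.0093 with sWAT, whereas over all those genes the values were 0.29, 0.41 and 0.39. These are correlations across genes that share libraries and the same minimum sum, given as a description.

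SLC6A3, the dopamine transporter, had 22 counts in oWAT and 0 in liver, muscle and sWAT, at least 7.09-fold higher in oWAT than in sWAT. It met the minimum sum through oWAT alone. SLC39A8, which takes up zinc and manganese, had 33, 2, 59 and 16 counts, 3.57-fold higher in oWAT than in sWAT (2.03 to 6.64). It was also called lower in muscle, 9.17-fold below sWAT (2.16 to 82.2). Both SLC39A8 calls were lost with TMM and DESeq2 scaling, and the fat call also with trimmed totals. The oWAT library also held 7 of 8 mesothelial markers with 1604 counts in all, against 1 of 8 with 2 counts in sWAT, and the part of mesothelial cells in these differences was not tested. In the other direction SLC36A1, a proton-coupled amino acid carrier of lysosomes, had 3, 6, 6 and 26 counts and was called higher in sWAT with DESeq2 scaling but with none of the other scalings.

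**Figure D4:**
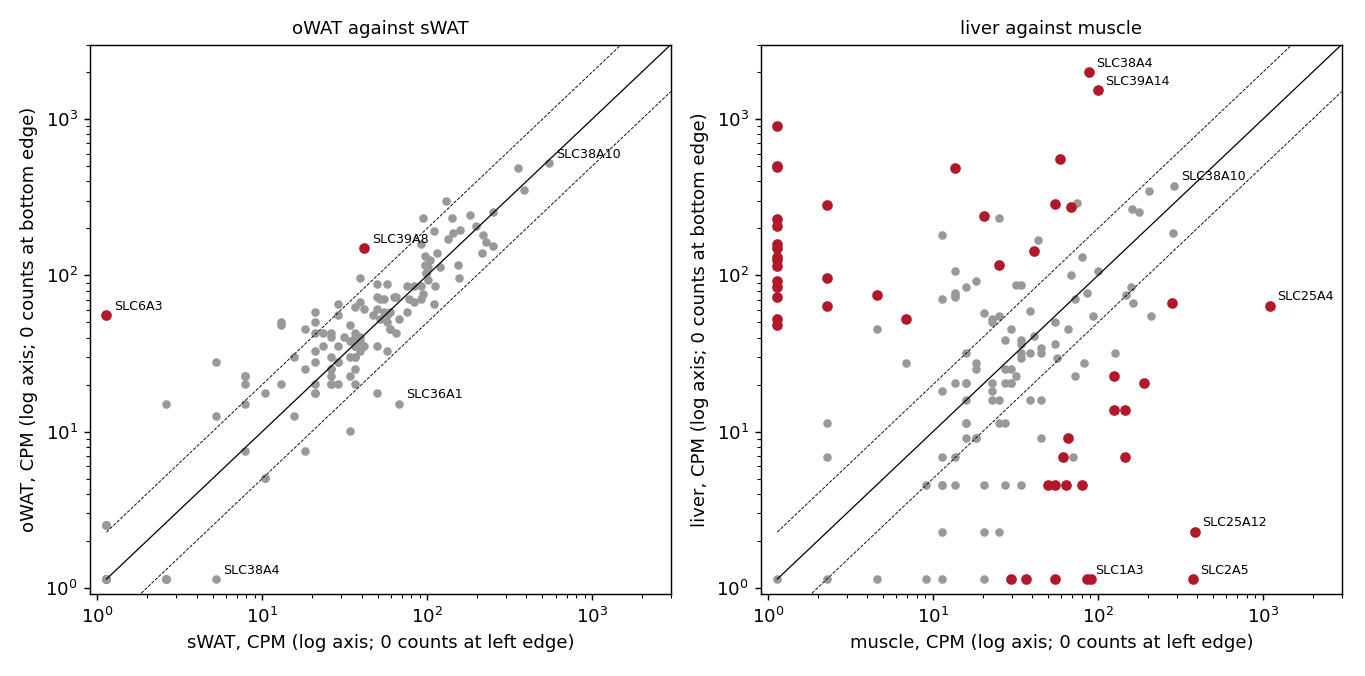
CPM of the 151 members in oWAT against sWAT (left) and liver against muscle (right), both axes logarithmic, with equality as a solid line and 2-fold differences dashed; genes with 0 counts lie on the edge. Red points are members called in the depot comparison (left, 2 genes) or called higher or lower in liver or in muscle (right); the cloud follows the line at left and spreads away from it at right.

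Several relatives that lie next to each other in the genome had different tissue orders. In the RefSeq gene table of assembly T2T-MFA8v1.1, in which 149 of the 151 members were found by symbol, 6 pairs of members were adjacent protein-coding genes. SLC38A1, SLC38A2 and SLC38A4 follow each other, with the liver counts 4, 37 and 876 and the sWAT counts 46, 60 and 2. SLC36A2, with 40 counts in muscle and 1 in sWAT, lies beside SLC36A1, with 6 in muscle and 26 in sWAT. SLC25A47, with 50 counts in liver alone, lies beside SLC25A29, with 3, 5, 11 and 2. SLC25A5 lies beside SLC25A43, which had 2, 15, 17 and 9 counts. The sixth pair, SLC17A1 and SLC17A4, was alike, as both had counts in liver alone.

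Genes that work with solute carriers were described from 2 further lists. Among 28 partner genes, covering the sodium pump that maintains the sodium gradient, chaperones and other carriers, 18 had 20 or more counts. The pump subunits ATP1B1 (280 counts in muscle against 51, 47 and 16 in liver, oWAT and sWAT) and ATP1B4 (20 against 0) were higher in muscle, as were the outer-membrane channels VDAC1 (150 against 32, 29 and 28) and VDAC3 (169 against 28, 55 and 48). ATP1A4 was called with them, at 205 counts against 0, 6 and 9, but the pump's alpha subunits are close copies and the split of reads among them is uncertain. These were 5 of 17 tested, against the 6.28% of all genes.

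Lower in liver were 5 of 12 partner genes, against 11.8% of all genes: BSG, the chaperone of the lactate carriers SLC16A1 and SLC16A3 (32, 138, 165 and 183 counts), TXNIP, which promotes removal of glucose transporters from the surface (70, 377, 649 and 622), ATP1B3, FXYD6 and SFXN3. SFXN1, a mitochondrial serine carrier, was the 1 of 9 higher in liver (69, 10, 12 and 6), against 10.2% of all genes. The SLC genes with other letters, and the SLCO genes, gave 17 with 20 or more counts. SLC35D1, SLCO1A2 and SLCO1B1 were higher in liver (3 of 12, all genes 10.2%), SLC35E4 in muscle (1 of 10, all genes 6.28%) and SLC18B1 in both fat libraries (1 of 11, all genes 4.22%), and SLC8B1 and SLCO2B1 were lower in liver (2 of 9, all genes 11.8%). Calls of both lists are given with library totals alone. Bounds lay close to 2 for ATP1B3 (2.12), SFXN3 (2.30), SLC8B1 and SLCO2B1 (2.31 each), SLC18B1 (2.04) and VDAC3 (2.03). Among the members, calls lower in liver fell from 12 to 3 with TMM, and for all genes from 11.8% to 6.11%.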

How the data were processed

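Gene counts of 4 full-length libraries (liver, muscle, oWAT and sWAT, 1 library per tissue, RNA of 5 monkeys pooled in each) were used. The values deposited by the authors are raw whole-number counts, and genes missing from a file were taken as 0. Reads were aligned with minimap2 2.24, per the submitters' processing notes; filters, counting, strand use, genome build and annotation are not stated, so no coordinates are printed. The files named for eWAT and iWAT were taken as oWAT and sWAT, as labelled. An entry naming no gene, 14.3% to 19.5% of each file, was left out of totals.

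Counts were scaled to library totals. Folds have exact Clopper-Pearson 95% intervals from the share of the 2 counts; these cover counting error only. Calls used at least 10 counts and a bound past 2. The rule was also run on simulated counts with known folds that held counting error alone. These took the library totals as the true scale, so the run could not examine spread between animals or the choice of scaling. Alternatives were edgeR 4.0.16 TMM factors, DESeq2 1.42.0 size factors (R 4.3.3), trimmed totals, minimum counts of 1 and 20, a 99% interval, and bounds of 1 and 4. DESeq2 and edgeR gave scaling factors alone. Class sums, evenness and the order of libraries were also computed with TMM and DESeq2 factors, chosen after seeing the data. Class medians used log2 ratios after adding 0.5 counts to the deposited counts. Python 3.11.15, NumPy 2.4.6, pandas 2.3.3, SciPy 1.17.1 and matplotlib 3.10.9 were used.

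Members, classes and lists were chosen with earlier results of these data known. Named members were up to 20 called per comparison by bound, the 4 others richest in counts per class, the 10 most even with at least 100 counts, and those at the threshold. SLC38A3, SLC25A22, SLC25A5, SLC25A43, SLC31A1, SLC36A1, SLC3A2 and SLC7A8 were named after their values were seen. Some members counted in the totals are not reported here by name.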

Additional observations from a re-analysis of the deposited data

How the results depend on the processing

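Without replicates, no result could be set against the spread between animals, and members near 10 counts could be called only for large folds. No paired analysis was possible because each tissue has 1 library. Of the 27 members higher in liver, 24 kept the call with a 99% interval (9.32% of all genes) and 18 with a bound of 4 (7.20%). All 27 kept it with every other setting tried, and a bound of 1 gave 41 (15.8% of all genes). The 9 members higher in muscle kept their calls in all settings but the bound of 4, which left 6, and a bound of 1 gave 14. Over all genes, 4.03% were called higher in muscle with the bound of 4 and 13.2% with the bound of 1.

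Calls in the other directions were few, and their numbers changed with scaling. The scalings that could only add calls higher in liver could only remove calls lower in liver. Shares of all genes with TMM and DESeq2 are given above. Those lower in liver, 12 as reported, became 3 with TMM and 4 with DESeq2. They became 7 with a 99% interval (7.99% of all genes), 23 with a bound of 1 (32.8%) and 2 with a bound of 4 (4.27%). Those lower in muscle, 2 as reported, became 0 with TMM, DESeq2 and a bound of 4 (0.420% of all genes). They became 1 with a minimum of 20 counts (3.56%) or a 99% interval (1.52%), and 9 with a bound of 1 (10.9%). Members higher in both WAT libraries, 3 as reported, became 1 with TMM or DESeq2. They were also 1 with a 99% interval (2.79% of all genes) or a bound of 4 (0.779%), and 17 with a bound of 1 (21.1%). Members lower in both became 4 with TMM and DESeq2, 6 with a bound of 1 (1.94% of all genes) and 1 with a bound of 4 (0.186%). Higher in oWAT than in sWAT were 2 as reported and 1 with TMM, DESeq2 or trimmed totals (1.12% of all genes). They were also 1 with a 99% interval (0.954%) or a bound of 4 (0.508%), and 15 with a bound of 1 (15.8%). Higher in sWAT was 0 as reported, 1 with DESeq2 and 7 with a bound of 1 (8.80% of all genes). No called fold changed direction under the 3 other scalings, but the called folds were too large for such shifts to reverse. The lowest was 3.38, for SLC6A6 in oWAT over muscle, while TMM shifted libraries by -0.43 to 0.58 on the log2 scale. Wider and narrower bounds change the counts by construction, and the cause of the shifts with scaling was not tested beyond the factors given above.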
